A study of Mus musculus with 11 samples.

Results

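Chromosome 11 was described in 11 mouse mammary tumours by all array probes that lie on it, 8994 of the 170305 probes of the series (mouse build mm9). Each tumour came from a different Pik3ca H1047R mouse of the strain labelled Mixed FVBN/Bl6, and its genomic DNA, labelled with Cy5, was hybridised on 1 Agilent comparative genomic hybridisation array against Cy3-labelled liver DNA of the same animal. All 11 animals carry the activating mutation of Pik3ca, the catalytic subunit of PI3-kinase, there is no tumour of another genotype, and the labels used here give neither the promoter or Cre line nor the age. The reading of a probe is the log2 ratio of tumour over liver signal after the median of the array has been set to 0, so a value above 0 is more DNA in the tumour than the typical probe of that array and a value below 0 is less. There is 1 array per animal and no repeat array, so the spread within a tumour is a spread over probes, and only the 11 tumours are replicates.

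The probes ran from position 3030764 to 121809961, and 6274 of them carry a gene name, for 1486 names. Of these names, 588 had at least 3 probes and were tested, and 898 had 1 or 2 probes. The number of measured probes was 8982 to 8994 per tumour. The noise of a single probe (SD) was 0.131 to 0.275 in 9 tumours, and 0.553 and 0.512 in tumours 9 and 11. Over all probes of the series, the array of tumour 11 ran against those of tumours 4, 5, 9 and 10, with correlations of -0.603, -0.609, -0.652 and -0.317. The labels give the same dyes for all arrays, so its direction was kept. Counts of calls and chromosome tests that move when it is turned are given with both values.

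Mouse chromosomes have their centromere near one end, so positions run from the centromere side, called proximal here, to the distal end. The ratio reports copy number relative to the rest of the same genome: in a pure population of cells with 2 copies elsewhere, 1 copy would give a log2 ratio of -1 and 3 copies would give 0.58, and normal cells in a tumour pull both towards 0. A bulk ratio cannot tell fewer altered cells from a smaller change per cell. Chromosome 11 of the mouse holds Nf1, whose product neurofibromin switches off Ras, as well as Trp53, Brca1, Erbb2 and Stat5a and Stat5b, genes with known roles in mammary biology and breast cancer.

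Segments of like ratio were found along the chromosome, and a segment of at least 10 probes with a mean of at least 0.2 in size was called a gain or a loss. The 60-base probes on both sides of the main edges are shown because they bracket where the copy number changed. Capitals mark probes inside the lost or gained stretch, lower case marks the neighbouring probe outside it (for tumour 8, the last lost probe), and the files do not give the strand of a probe. The first loss of tumour 1 starts between chr11:38018177-38018236 and chr11:38053719-38053778, and ends between chr11:39172189-39172248 and chr11:39185077-39185136:
last probe before the first loss: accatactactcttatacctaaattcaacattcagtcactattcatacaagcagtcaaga
first probe in the first loss: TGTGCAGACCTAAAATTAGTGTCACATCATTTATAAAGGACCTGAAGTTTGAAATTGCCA
last probe in the first loss: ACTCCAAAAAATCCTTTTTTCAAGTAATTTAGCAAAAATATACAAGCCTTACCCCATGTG
first probe after the first loss: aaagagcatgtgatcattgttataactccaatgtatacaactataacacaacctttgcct

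The loss over Nf1 in tumour 1 starts between chr11:78839432-78839491 and chr11:78852316-78852375, both in Ksr1, and ends between chr11:79697677-79697736 and chr11:79734591-79734650, which carry no gene name:
last probe before the Nf1 loss: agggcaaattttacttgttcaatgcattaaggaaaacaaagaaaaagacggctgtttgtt
first probe in the Nf1 loss: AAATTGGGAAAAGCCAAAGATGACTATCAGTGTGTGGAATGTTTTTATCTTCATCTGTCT
last probe in the Nf1 loss: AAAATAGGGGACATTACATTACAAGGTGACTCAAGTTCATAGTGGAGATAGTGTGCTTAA
first probe after the Nf1 loss: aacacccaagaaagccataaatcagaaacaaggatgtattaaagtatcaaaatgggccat

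The switch from loss to gain in tumour 8 lies in Myo18a, between chr11:77662582-77662641 and chr11:77669270-77669329:
last lost probe of tumour 8: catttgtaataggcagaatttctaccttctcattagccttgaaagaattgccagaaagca
first gained probe of tumour 8: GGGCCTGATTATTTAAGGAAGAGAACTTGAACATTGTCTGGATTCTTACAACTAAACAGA

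The Nlrp1b and Nlrp1c stretch, high in 4 tumours, starts between chr11:70976924-70976983 and chr11:70989862-70989921 and ends between chr11:71107044-71107103 and chr11:71121491-71121550:
last probe before the Nlrp1 stretch: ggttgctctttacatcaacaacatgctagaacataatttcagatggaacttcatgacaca
first probe in the Nlrp1 stretch: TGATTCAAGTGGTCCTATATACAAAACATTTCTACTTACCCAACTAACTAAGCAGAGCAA
last probe in the Nlrp1 stretch: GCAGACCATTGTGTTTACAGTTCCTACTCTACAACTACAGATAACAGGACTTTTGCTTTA
first probe after the Nlrp1 stretch: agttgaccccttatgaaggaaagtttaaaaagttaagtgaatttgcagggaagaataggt

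Chromosome 11 was mostly changed in pieces. The 11 tumours held 74 segments, of which 11 were called gains and 16 losses (10 losses without tumour 8). At least 1 call was made in 8 tumours, and tumours 5, 9 and 10 had none. The segments met at 63 edges. At 34 of these edges the ratio stepped by at least 0.2, in 8 tumours, and 23 of the 34 were found within 100 kb under all 7 alternative settings of the processing. None of the 29 smaller edges was found under all 7. Of the 7, centring on the mode shifts a whole array alike, so every edge passed it by construction. Another was the authors' value table. It correlated with the values used here at 0.9651 in tumour 2 and at least 0.9977 in the others.

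**Figure D1:**
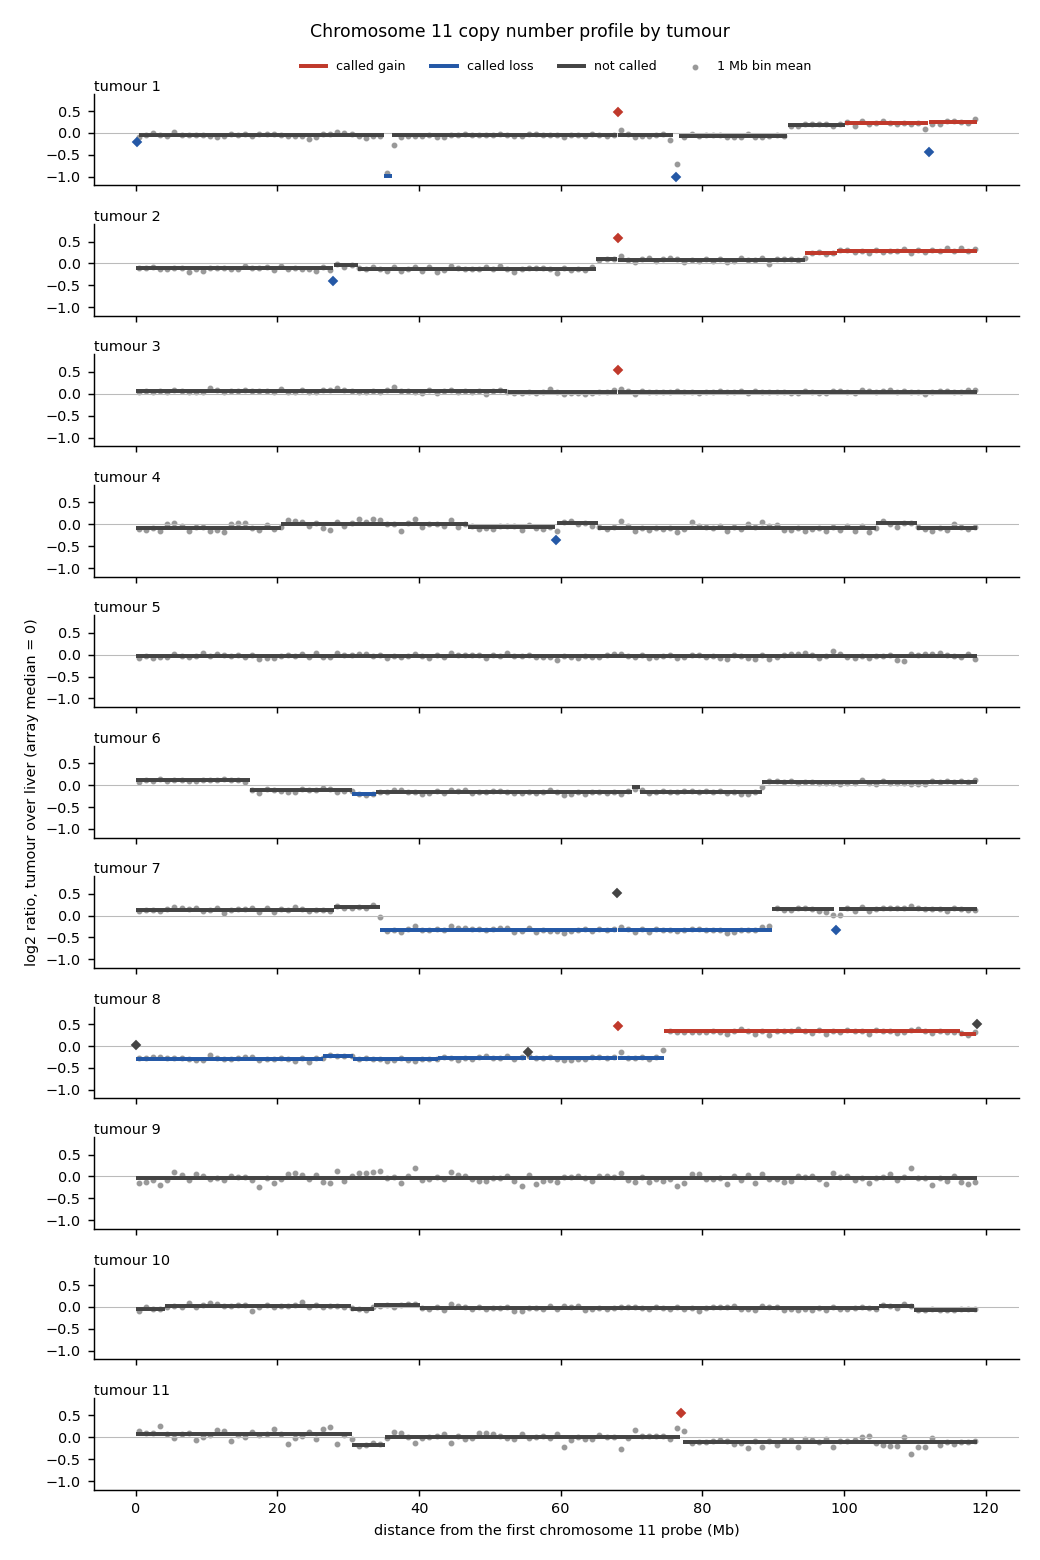
Log2 ratio of tumour over liver (vertical axis) along chromosome 11 (horizontal axis, distance in Mb from the first probe) in each of the 11 tumours. Grey points are 1 Mb bin means, and lines are segment means, red for called gains, blue for called losses and dark grey for segments not called. A diamond marks a segment shorter than 1 Mb. Tumour 8 changes from loss to gain along its length, tumour 7 has a long loss in the middle, tumour 1 has 2 short deep losses near -1, and tumours 1, 2 and 8 have distal gains.

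Tumour 8 had the most altered chromosome 11. Losses covered 57.8% and gains 41.5% of its measured probes, against 20.7% and 14.6% of all autosomal probes of that tumour. Loss ran from 3107005 to 77662641 in 6 called segments with means between -0.30 and -0.22. Inside that run lay an uncalled piece from 58146238 to 58584006, with a mean of -0.14, and the Nlrp1 stretch described below. Within Myo18a, which encodes an unconventional myosin, the mean then stepped up by 0.60 between probes 6.63 kb apart. From 77669270 to 119391798 the mean was 0.33, over 3501 probes of which 98.3% were above 0, and a further gain with a mean of 0.27 reached 121659943.

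Tumour 7 had its loss in the middle of the chromosome. Losses covered 47.9% of its chromosome 11 probes, against 25.7% of its autosomal probes, and no chromosome 11 probe lay in a gain, against 5.89%. The loss began between 37507534 and 37532546, with a step of -0.51, and had a mean of -0.32 (SD over probes 0.28, 2450 probes) up to 70989921 and of -0.33 (SD 0.29, 1800 probes) from 71076914 to 92792789. It ended by a step of 0.48 before Car10, a carbonic anhydrase-related gene. The proximal stretch before it had means of 0.13 and 0.19, and the distal stretch after it 0.14 and 0.15, all below the threshold for a call. Inside the distal stretch, 55 probes from 101653544 to 102252150 had a mean of -0.33. They carry 17 gene names, among them Hdac5, a histone deacetylase, Ubtf, a transcription factor of ribosomal RNA genes, and Slc4a1, the anion exchanger of red blood cells. Over the same 55 probes tumours 1, 2 and 8 had means of 0.17, 0.32 and 0.33, and the other 7 tumours lay between -0.20 and 0.05.

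Tumour 2 rose in steps towards the distal end. Gains covered 23.6% of its chromosome 11 probes, against 21% of its autosomal probes, and losses 0.111%, against 0.97%. Up to 67942861 its 2 longest segments had means of -0.11 and -0.12, below 0 but not called. Within Stx8, a syntaxin of vesicle fusion, the mean stepped up by 0.22 between probes 5.66 kb apart, then ran at 0.09 to 70976983, at 0.08 from 71121491, past the Nlrp1 stretch described below, to 97493998, at 0.24 from 97500246 to 102019157 and at 0.29 from 102029262 to the last probe. In the distal piece 94.7% of probes were above 0. The short loss of tumour 2, 10 probes in Asb3 at 30872104 to 30959683, had a mean of -0.41, and its edges were found under 3 of the 7 alternatives. Over the same probes tumours 4, 9 and 11 had means of -0.27, -0.34 and 0.45, and the remaining tumours lay between -0.24 and 0.05. Tumour 2 has 21 probes in its last segment where the deposited log ratio is listed as 0, and the mean there without them was 0.29.

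Tumour 1 combined a distal gain with short losses. Gains covered 17.3% of its chromosome 11 probes, against 6.08% of its autosomal probes, and losses 1.66%, against 20.2%. Its means were between -0.07 and -0.04 over the long uncalled segments up to 95037958, before Tac4, a tachykinin gene. There the mean stepped up by 0.25 to 0.19, then to 0.23 from 103189864 to 114908421 and to 0.25 from 115042273 to the last probe. Between these last pieces, 11 probes of Cd300e, Rab37 and Slc9a3r1 from 114922965 to 115032417 averaged -0.44 (SD over probes 0.155), 0.68 below the mean of the 5 Mb on both sides, and all 11 were below 0. In the other 10 tumours the same 11 probes differed from their surroundings by -0.24 to 0.19. Cd300e is a receptor of myeloid cells, Rab37 a small GTPase of secretion and Slc9a3r1 a scaffold protein under the cell membrane. A proximal call of tumour 1, from 3030764 to 3456938 with a mean of -0.22, had its distal edge found under 5 of the 7 alternatives.

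Tumour 6 had shallow steps. Its mean was 0.11 from 3030764 to 19116823, at the gap between Meis1, a homeobox gene, and Spred2, an inhibitor of Ras signalling, where it stepped by -0.23. It was -0.16 from 36996951 to 73133526 and from 74177567 to 91420277, and 0.07 after a step of 0.22. Only 294 probes from 33585368 to 36980227, with a mean of -0.21, passed the threshold, so that losses covered 3.27% of its chromosome 11 probes, against 0.543% of its autosomal probes, and gains none, against 9.72%.

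In the remaining tumours calls were short or absent. Tumour 3 had gains over 0.111% of its chromosome 11 probes, against 11.6% of its autosomal probes, and no loss, against 0.411%. Tumour 4 had a loss over 0.389%, against 2.22%, and no gain, against 5.23%. That loss, 35 probes from 62172076 to 62493783 with a mean of -0.36, begins inside Ncor1, a nuclear receptor corepressor, and its edges were found under 5 of the 7 alternatives. Tumour 11 had a gain over 0.5%, against 0.203%, and no loss, against 0.121%. That gain, 45 probes from 79815241 to 80285955 with a mean of 0.55, spans Suz12, a subunit of a Polycomb complex, Atad5, which unloads the replication clamp, and Psmd11, a proteasome subunit, and its edges were found under 6 and 5 of the 7 alternatives. Tumours 4, 5, 9 and 10, which run against tumour 11 over the whole array, had means of -0.31, -0.09, -0.29 and -0.07 there. With tumour 11 turned it would be a loss of the same size, and the chromosome would hold 10 gains and 17 losses. Tumour 5 had 1 segment and no call, against 0% of its autosomal probes in gains and 2.26% in losses, and tumours 9 and 10 had no call on any autosome (0%). The steps of tumour 10 were below 0.10 in size.

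Averaged over each tumour, the share of chromosome 11 probes in calls was 17.7% ± 31.1 and that of the other autosomes 13.2% ± 12.5 (SD, n = 11). The difference was 4.49 percentage points ± 22.4, with an exact two-sided sign-flip permutation p of 0.758 (0.943 after Benjamini-Hochberg adjustment over 19 autosomes). Without tumour 8 the mean difference was -1.84 percentage points. Chromosome 11 was the more altered in tumours 2, 7, 8 and 11, at 23.7%, 47.9%, 99.3% and 0.5% against 21.9%, 30.6%, 31.6% and 0.314%.

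The 2 losses of tumour 1 near -1 were the only segments of chromosome 11 in the 11 tumours that were at most 10 Mb long and at least 0.6 in size. The first spans 38053719 to 39172248, 1.12 Mb with 31 probes. Its mean was -0.984 (SD over probes 0.207), its probes ran from -1.36 to -0.456, and all 31 were below 0. The 5 Mb on both sides had a mean of -0.07 in the same tumour, a difference of -0.91. The stretch is poor in named probes, at 16.1% against 69.3% on both sides, while the GC content of its probes was 36.0% against 36.8%. It holds 2 names, both of transcripts without a gene symbol in the files: AK145334, with 1 probe at -1.12, and AK016100, with 4 probes inside at -1.15 and 1 outside at 0.15.

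The second loss spans 78852316 to 79697736, 0.845 Mb with 67 probes. Its mean was -0.998 (SD over probes 0.205), its probes ran from -1.43 to -0.290, all 67 were below 0, and the 5 Mb on both sides had a mean of -0.06. It takes in the whole of the measured Nf1, 24 probes from 79160565 to 79388279, with a mean of -0.98 (SD over probes 0.17, lowest -1.43, highest -0.68). Ksr1, a scaffold of the Raf, Mek and Erk kinases, was cut by the edge: 11 probes inside had a mean of -0.99 and 2 outside -0.08. Wsb1, a substrate receptor of a ubiquitin ligase, had 2 probes with a mean of -1.06, and Rab11fip4, a Rab11 effector in membrane traffic, had 10 with a mean of -0.95. In the order of genes in RefSeq's GRCm38.p6, a later build, Omg, Evi2, Evi2a and Evi2b also lie between Ksr1 and Rab11fip4, and they have no probes of their own name in the stretch. The means of both losses, -0.984 and -0.998, stand beside the value of -1 given above for 1 copy of 2. A bulk ratio cannot tell this from a deeper loss in fewer cells. The distal gains of tumour 1 had means of 0.23 and 0.25, against 0.58 for 3 copies. With normexp background correction the mean of Nf1 in tumour 1 was smaller in size.

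**Figure D2:**
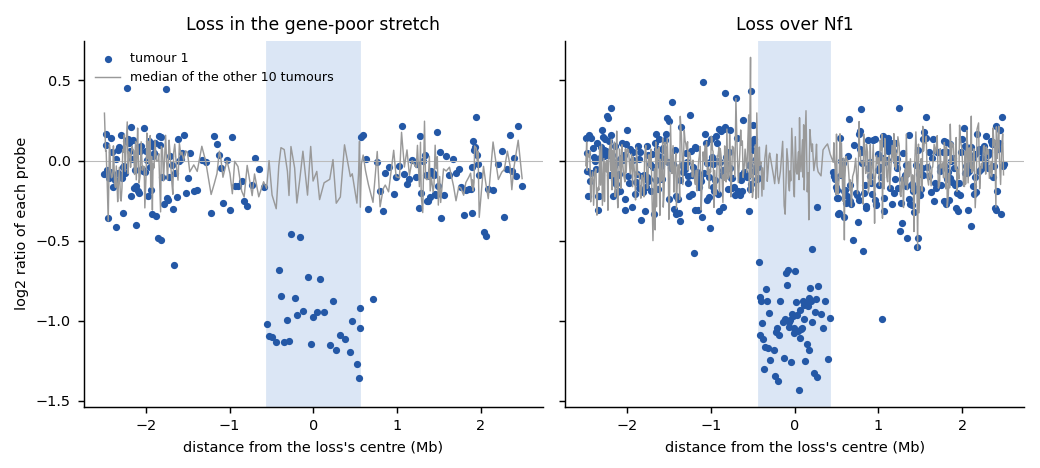
Log2 ratio of each probe (vertical axis) against distance in Mb from the centre of the 2 short losses of tumour 1 (shaded), the first in a stretch with few named probes and the second over Nf1. Blue points are probes of tumour 1 and the grey line is the median of the other 10 tumours: inside the shaded stretches the points of tumour 1 lie between -1.43 and -0.290 while the grey line stays with its surroundings.

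The other tumours showed neither short loss as a segment of its own. At the first stretch the lowest, median and highest of the 11 tumour means were those of tumour 1 at -0.984, tumour 9 at -0.108 and tumour 3 at 0.111. Tumours 7 and 8 had -0.36 and -0.37 there, inside their long losses. At the second stretch tumour 1 stood at -0.998, tumour 7 at -0.33 inside its long loss, and tumour 8 at 0.31 inside its gain, with the other 8 tumours between -0.15 and 0.11. Nf1 itself had -0.98 in tumour 1, -0.44 in tumour 7, a median of -0.14 over the 11 tumours and its highest value, 0.33, in tumour 8. Its mean over tumours was -0.13 and did not pass the limma test across all genes (adjusted p = 0.388).

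The Nlrp1 stretch was the one short change shared by several tumours. Nlrp1b and Nlrp1c belong to a family of related inflammasome genes whose copy number and sequence differ between mouse strains, so a probe may read more than one copy. Each ratio is against liver of the same animal, and the cause of the shared change was not tested. Over the 11 probes from 70989862 to 71107103 the means were 0.47, 0.59, 0.51 and 0.45 in tumours 1, 2, 3 and 8, and all 11 probes were above 0 in each of these 4 tumours. The other 7 tumours had means from -0.37 in tumour 6 to 0.08 in tumours 9 and 10, so these 2 sets of tumours did not overlap, which follows from how the 4 were called. Set against the 5 Mb on both sides, the 4 tumours lay 0.52, 0.54, 0.47 and 0.72 higher, and the stretch was high whether the surroundings were lost, as in tumour 8 at -0.27, or near 0, as in tumour 3 at 0.04.

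Among the other tumours the Nlrp1 probes did not move as one. In tumour 6 none of the 11 was above 0, and the mean lay 0.22 below the surroundings. In tumour 7 the probes were split: 6 probes from 71001060 to 71066541 had a mean of 0.52, too few for a call, while the mean of all 11 was 0.05. Nlrp1a, the neighbour in the same family, had 6 probes and means of -0.05, 0.14, 0.14 and -0.10 in tumours 1, 2, 3 and 8, where Nlrp1c had 0.46, 0.67, 0.50 and 0.47. The distal edge fell in the same gap, between 71107103 and 71121491, in all 4 tumours. The proximal edge fell in the same gap in tumours 1, 2 and 8 and 1 probe later in tumour 3. Tumours 2, 3 and 8 share a slide and tumour 1 lies on another, and the part of the slide in this was not tested.

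**Figure D3:**
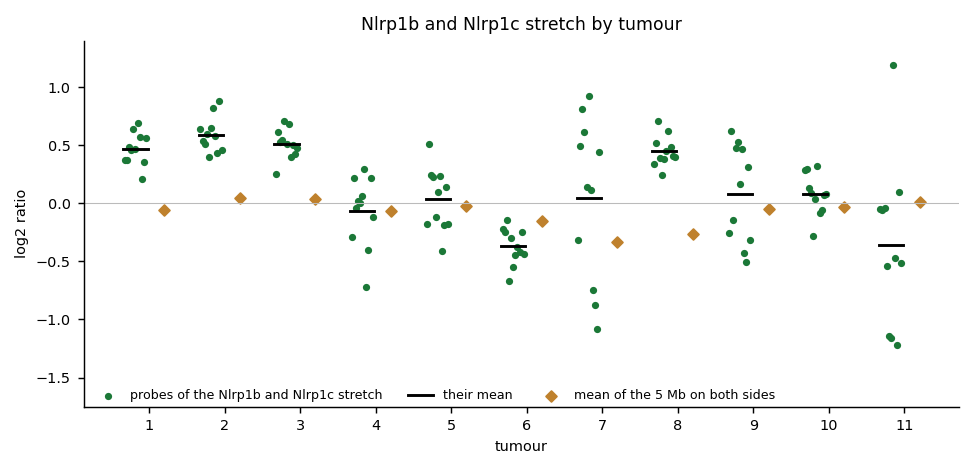
Log2 ratio (vertical axis) of the 11 probes of the Nlrp1b and Nlrp1c stretch in each tumour (horizontal axis). Green points are probes, black lines their means and brown diamonds the mean of the 5 Mb on both sides: all 11 probes are above 0 in tumours 1, 2, 3 and 8, with means from 0.45 to 0.59.

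Split at 62420362, the middle of the covered length, the proximal part held 3957 probes and the distal part 5037. The GC content of their probes was alike, 36.8% and 36.9%, while 66.4% and 72.4% of probes carried a gene name. The proximal part was lower than the distal part in tumours 1, 2, 6 and 8, by -0.12, -0.26, -0.04 and -0.45, and higher in the other 7 tumours, by 0.00304 to 0.10. Tumour 8 had -0.28 in its proximal and 0.17 in its distal part, tumour 2 had -0.11 and 0.15, and tumour 1 had -0.06 and 0.06. Over the 11 tumours the difference was -0.06 ± 0.16 (SD), with an exact two-sided sign-flip permutation p of 0.335 (0.655 after Benjamini-Hochberg adjustment over 20 chromosomes). With tumour 11 turned it was -0.08 ± 0.15, above 0 in 6 tumours (sign-flip permutation p = 0.118, adjusted p = 0.483). By slide, with the direction of tumour 11 kept, the mean difference was -0.23 in the 3 tumours of slide 1. It was 0.05 in the 4 of slide 2, all of them above 0, and -0.03 in the 4 of slide 3. Tumour 11, at 0.10, is on slide 2 and would be below 0 if turned. With 3 or 4 tumours the smallest p is 0.25 or 0.125.

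**Figure D4:**
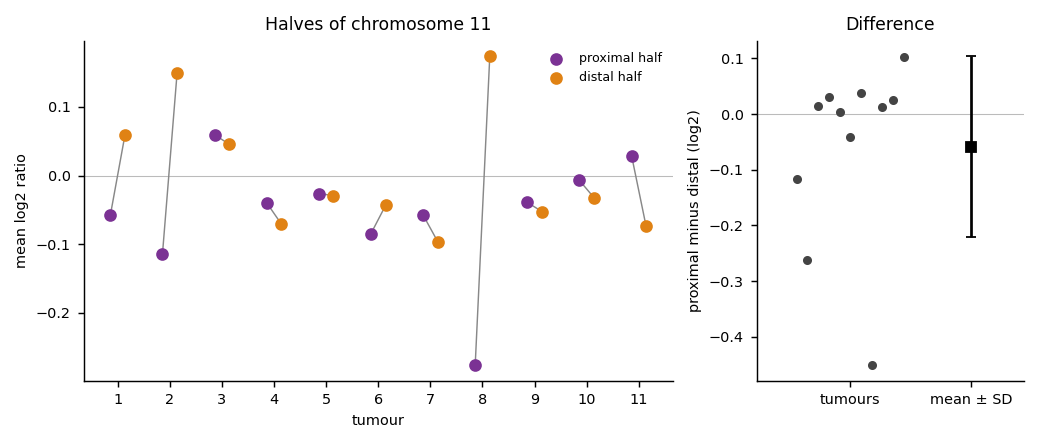
Mean log2 ratio of the proximal and the distal part of chromosome 11 in each tumour (left panel) and the proximal minus distal difference of the 11 tumours with its mean and SD (right panel). Tumours 1, 2 and 8 have the widest differences, at -0.12, -0.26 and -0.45, and most others lie near 0.

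Over its whole length, chromosome 11 stayed near the array median. Its mean ran from -0.08 in tumour 7 to 0.05 in tumour 3, with a median of -0.03, and was above 0 in 3 tumours and below in 8. The mean over tumours was -0.02 ± 0.04 (SD, n = 11), with an exact two-sided sign-flip permutation p of 0.0918 (0.262 after Benjamini-Hochberg adjustment over 20 chromosomes). With tumour 11 turned it was -0.0177 ± 0.0429, above 0 in 4 tumours (sign-flip permutation p = 0.2, adjusted p = 0.483). By slide, with the direction of tumour 11 kept, the mean was 0.02, -0.05 and -0.03. A whole-chromosome mean hides opposite pieces, as in tumour 8, whose mean of -0.02 combines 57.8% of probes lost and 41.5% gained.

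The gains of different tumours overlapped distally and the losses in the middle. Tumour 8 had 99.3% of its chromosome 11 probes in calls, so most calls of other tumours had to meet a call of tumour 8. Every run of bins shared between tumours includes tumour 8, except the bin from 79 to 80 Mb. By 1 Mb bins, gain was shared by tumours 1, 2 and 8 in the 19 bins from 103 to 122 Mb and by tumours 2 and 8 in the 5 bins from 98 to 103 Mb. The limit at 103 Mb rests on the threshold: tumour 1 had already stepped up after 95037958, to a mean of 0.19 that was not called, and its edge at 103171235 was a step of 0.04 found under 4 of the 7 alternatives. Loss was shared by tumours 7 and 8 from 39 to 58 Mb and from 59 to 78 Mb, 19 bins each. The bin from 58 to 59 Mb was not counted for tumour 8, as no single called segment filled enough of it, though its mean was -0.23. Tumours 6 and 8 shared loss in the 3 bins from 34 to 37 Mb, which also rests on the threshold. Tumour 6 had means of -0.12 before and -0.16 after its called piece at -0.21. The steps there were -0.09 and 0.05, at edges found under 5 of the 7 alternatives. At 38 to 39 Mb the first short loss of tumour 1 met the long losses of tumours 7 and 8, and at 79 to 80 Mb the Nf1 loss met that of tumour 7. No bin was gained in more than 3 or lost in more than 3 tumours.

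Across all 11 tumours, limma's test of a mean ratio different from 0 was run on all 2531 bins of the series, and Benjamini-Hochberg adjusted p-values under 0.05 were called. None of the 119 bins of chromosome 11 was called higher, against 9.96% of all bins, and 6 were called lower (5.04%), against 3.48%. At an unadjusted p under 0.05, 4 bins were higher and 26 lower. The 6 lower bins begin at 43, 56, 57, 59, 62 and 66 Mb, all within the middle that tumours 7 and 8 had lost, with means from -0.13 to -0.11 and limma adjusted p from 0.0254 to 0.0496. Tumours 7 and 8 lay between -0.38 and -0.24 in these bins, and tumour 3 between -0.01 and 0.05. The count of lower bins was 0 without tumour 2, 6, 7 or 8, 4 without tumour 4 or 5, 3 without tumour 9 and 10 without tumour 11, and with tumour 11 turned it was 11 lower and 4 higher. With normexp background correction no bin was called lower and 1 was called higher, with a GC fit removed 3 were lower, and with slide as a random block 13 were lower.

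Among the 588 tested genes, 4 were called higher (0.680%, against 4.6% of the 9377 tested genes of the series) and 16 lower (2.72%, against 2.29%), and 126 had an unadjusted limma p under 0.05. The median gene mean was -0.03 on chromosome 11 and -0.01 over all tested genes. Timp2, an inhibitor of matrix metalloproteinases at 118170390 to 118202562, had a lowest value of -0.52 in tumour 11, a median of 0.36 and a highest of 0.69 in tumour 9, with a mean of 0.28 (limma SE 0.08, adjusted p = 0.0441). Timp2 had 4 probes and was above 0 in 10 of 11 tumours, including those with no call on the chromosome. In these, tumours 5, 9 and 10, it had 0.37, 0.69 and 0.14. The 1 Mb bin that holds it had -0.035, 0.0035 and -0.061 in the same tumours. Its lowest and highest values are on the arrays with the most noise. Med1, a subunit of the Mediator complex, and Slc16a6, a monocarboxylate transporter family member, had means of 0.20 each, and AK033185 had 0.21.

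The 16 lower genes all lie between 43593970 and 76024051. Doc2b, a calcium sensor of vesicle release with 3 probes, had the lowest mean, -0.28 (limma SE 0.07, adjusted p = 0.0288). Its lowest value was -0.70 in tumour 7, its median -0.20 and its highest 0.08. In tumours 5, 9 and 10, which had no call, Doc2b had -0.33, -0.69 and -0.19. The 1 Mb bin that holds it had -0.067, -0.14 and -0.047 there. Aldh3a2, a fatty aldehyde dehydrogenase with 3 probes, had a mean of -0.27 and ran from -0.66 in tumour 9 to 0.17 in tumour 11. These are the arrays with the most noise, and the 1 Mb bin that holds Aldh3a2 had -0.077 and -0.026 in them. Myocd, a coactivator of smooth muscle genes with 11 probes, had a mean of -0.15, and Pitpnm3, a phosphatidylinositol transfer protein with 10, also had -0.15. Adra1b, an adrenergic receptor with 8 probes, was below 0 in all 11 tumours, from -0.38 to -0.02. Cnot6, Ccdc69, Slc47a1, Myh13 and Aloxe3 had means from -0.20 to -0.14, and the other 6 names are transcript accessions or clone names. Both counts fell to 0 without tumour 3 and without tumour 6. They were 35 higher and 58 lower without tumour 11, the 4 and the 16 genes among them, and 41 higher and 67 lower with tumour 11 turned. Without any one of tumours 1, 2, 4, 5, 7 and 8 they were 1 or 2 higher and 1 to 6 lower, and without tumour 9 the lower genes numbered 10.

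By level alone, D11Wsu99e, Cdc27, an anaphase-promoting complex subunit, and Ube2o, a ubiquitin-conjugating enzyme, joined Timp2 and AK033185 as the 5 highest means, at 0.21, 0.21 and 0.20, without passing the test. Spns3, Wdr16 and Larp1 joined Doc2b and Aldh3a2 as the lowest, at -0.24, -0.23 and -0.21. The 5 largest ranges over tumours were those of Cntrob, Kif3a, Atad5, Suz12 and ENSMUST00000101017, from 1.56 to 2.25, and the highest value of each was in tumour 9 or 11, the arrays with the most noise. The median range of the tested genes was 0.60.

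None of the 45 tested members of 7 lists was called in either direction by limma, and 10 of them had an unadjusted p under 0.05, against 126 of all 588 tested genes of the chromosome, a share close to that of the lists. Of 16 listed tumour suppressors 14 had a probe, with a median mean of 0.01, and 11 were tested. Apart from Nf1, Map2k4, a kinase of the Jnk and p38 pathways, had -0.38 in tumour 7 and -0.40 in tumour 8, and its median over all tumours was -0.03. Ncor1 had -0.30 and -0.37 in the same tumours, -0.26 in tumour 4 and a highest value of 0.17 in tumour 11. Brip1 and Rnf43, a DNA helicase of the Brca1 pathway and an inhibitor of Wnt receptors, lie beyond the switch of tumour 8 and before the end of the long loss of tumour 7. Brip1 had -0.29 in tumour 7 and 0.34 in tumour 8, and Rnf43 had -0.29 and 0.32. Brca1 had 0.18, 0.21, 0.14 and 0.28 in tumours 1, 2, 7 and 8, and Trp53, with 2 probes, had -0.07 and -0.18 in tumours 7 and 8 and 0.19, its highest value, in tumour 1.

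Of 20 listed receptors and signalling adaptors 17 had a probe, with a median mean of 0.00142, and 14 were tested. Pik3r5 and Pik3r6, regulatory subunits of the PI3-kinase that G protein-coupled receptors activate, had -0.33 and -0.60 in tumour 7 and -0.22 and -0.36 in tumour 8. Egfr, the receptor of epidermal growth factor, with 17 probes, had -0.38 in tumour 8 and between -0.27 and 0.13 in the others. Grb10, an adaptor that restrains insulin signalling, had -0.39 in tumour 8. Prkca, a protein kinase C with 42 probes, had 0.28, 0.38 and 0.34 in tumours 1, 2 and 8 and a median of 0.06, and Rptor, the scaffold of mTOR complex 1, with 32 probes, had 0.22, 0.34 and 0.29 and a median of 0.03. Grb2, the adaptor that joins receptors to Ras, had 0.28, 0.28 and 0.33. Erbb2, with only 2 probes and so not tested, had 0.27, 0.27, 0.38 and 0.39 in tumours 1, 2, 7 and 8. Its neighbour Grb7, of the same list and with 1 probe, had -0.02, -0.09, -0.02 and 0.23 in these tumours. In tumours 1 and 7 the segment that holds both genes was not called, with means of 0.19 and 0.14.

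Of 20 listed transcription factors and cell cycle genes 18 had a probe, with a median mean of -0.01, and 12 were tested. Ebf1, a B cell factor with 36 probes, had -0.27 and -0.32 in tumours 7 and 8. Ikzf3, of the same lineage, had 0.23, 0.24, 0.23 and 0.42 in tumours 1, 2, 7 and 8, and Stat5b, which relays prolactin signals in the mammary gland, had 0.21, 0.23, 0.19 and 0.23. All 4 listed Wnt ligands had a probe and 2 were tested. Wnt3 had 0.34, 0.54, 0.30 and 0.38 in tumours 1, 2, 7 and 8, while Wnt3a, on the proximal side, had -0.18, -0.10, -0.35 and -0.17 in the same tumours. Of 10 listed type I keratins and mammary lineage genes 4 had a probe and 2 were tested. Itgb4, an integrin of basal epithelial cells with 3 probes, had 0.30, 0.38, 0.50 and 0.58 in tumours 1, 2, 7 and 8. The 1 Mb bin that holds it had 0.21, 0.30, 0.14 and 0.31 in these tumours. Of 18 listed cytokines and chemokines 10 had a probe, none with 3, so none was tested. All 6 listed Nlrp1 and olfactory receptor genes had a probe and 4 were tested.

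**Figure D5:**
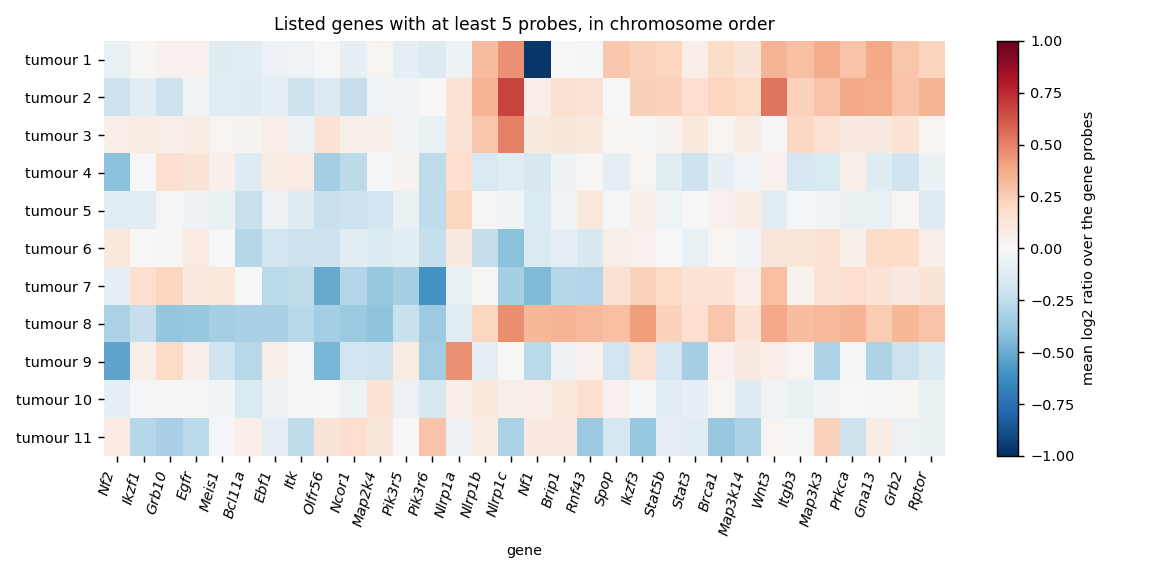
Mean log2 ratio over the probes of each listed gene with at least 5 probes (columns, in chromosome order) in each of the 11 tumours (rows), with blue below 0 and red above 0. Nf1 in tumour 1, at -0.98, is the deepest blue, and in tumour 8 the genes left of Nlrp1b are blue and those from it onwards are red. No gene shown lies between Nlrp1c and the switch in Myo18a, a stretch lost in tumour 8 with a mean of -0.27.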

How the data were processed

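Per the labels, tumour DNA (Cy5) and liver DNA of the same animal (Cy3) were hybridised together, 1 array per animal, giving 1 group of 11 tumours. Per the submitters' processing notes, image reading used Agilent Feature Extraction 10.5.1.1, and values came from Partek; the file headers give version 11.0.1.1 for tumours 4, 7, 9 and 11. The deposited scanner files hold the intensity of each spot in both channels, background-subtracted and dye-normalized, and its log10 ratio. The authors' value table holds log2 ratios, and the medians of its arrays are not set to 0. They correlated with the log2 of processed red over green at 0.9651 in tumour 2 and at least 0.9977 in the others. The value table was used as an alternative after the median of each array had been set to 0.

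Here, each probe's value is the log2 of processed red over green, the mean of its spots without outliers, less the median of its array. No loess or quantile step was applied. Per the file headers, positions and gene names are those of the array design (mm9). Optimal partitioning gave segments of 5 or more probes; each new edge cost 2 noise variances multiplied by the log probe number, and single probes were clipped at 4 SD around an 11-probe running median. Bins of at least 10 probes and genes of at least 3 were tested against 0 with limma 3.58.1 in R 4.3.3 over the whole array, and single values with exact sign-flip permutation tests over the 11 tumours. The number of arrays limits the precision. Slides, 1 with tumours 2, 3 and 8, 2 with tumours 4, 7, 9 and 11 and 3 with tumours 1, 5, 6 and 10, were tested as a random block and singly. Normexp (offset 50) used median signals, since the slide 2 files used here hold no mean signals. Scripts were tested on simulated data.

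The members and gene lists were chosen with earlier results of these data known. Named genes are those in or next to the 2 short losses, at segment edges, in the lists, and the 5 highest, 5 lowest and 5 widest-ranging. Of the 1486 names, 1012 are current RefSeq symbols and 105 older ones.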

Additional observations from a re-analysis of the deposited data

How the results depend on the processing

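No paired analysis was possible because all 11 tumours form 1 group, each ratio being already within an animal. Of the alternatives run, 4 turned a value round: the chromosome mean was 0.004 with normexp and 0.0205 within slide 1, the proximal minus distal difference was 0.0465 within slide 2, and the altered share minus that of the other autosomes was -1.84 percentage points without tumour 8, its lowest value on leaving out 1 tumour. None of these values passed its test in the main setting, and the cause was not tested. Leaving out 1 tumour moved the altered share difference between -1.84 and 6.2 percentage points.

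The number of gains was 37 with a penalty of 1 and 6 with a threshold of 0.3. The number of losses was 60 with a penalty of 1, 7 with a penalty of 4, 9 with a threshold of 0.3 and 8 with normexp, and leaving out 1 tumour gave 10 (without tumour 8) to 16. Lower bins numbered 0 with normexp, 3 with a GC fit removed, 11 with tumour 11 turned and 13 with slide as a random block, and 0 to 10 on leaving out 1 tumour. Higher bins numbered 1 with normexp, 4 with tumour 11 turned, 4 without tumours 9 and 11 (an alternative chosen after seeing the data) and 0 to 3 on leaving out 1 tumour. Higher genes numbered 1 with mode centring, 19 with normexp, 7 without dim probes, 41 with tumour 11 turned, 19 with the slide block, 13 with array weights, 17 with genes of 1 probe admitted, 32 without tumours 9 and 11 and 0 to 35 on leaving out 1 tumour. Lower genes numbered 7, 14, 12, 67, 65, 41, 27, 50 and 0 to 58 under the same settings. The slide block correlation was estimated below 0, at -0.111 over genes and -0.0741 over bins, which narrows the error by construction, and the causes of the other differences were not tested.

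The means of the 2 short losses of tumour 1 kept their sign and moved by less than their spread over probes in every alternative run; no tumour can be left out of them, since they are values of tumour 1 alone. The mean of Nf1 in tumour 1 was -0.799 with normexp. The 23 edges of at least 0.2 found under all alternatives bear on tumours 1, 2, 3, 6, 7 and 8. Tumours 9 and 11 had the highest probe noise, 0.553 and 0.512, and tumour 11 still had steps of -0.26 and 0.20 at edges found under 6 and 5 of the 7 alternatives.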
